A study of Homo sapiens with 6 samples.

Results

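The genes described here are 9 transcription factors of the STAT and IRF families, STAT2, STAT3, IRF1, IRF2, IRF3, IRF5, IRF7, IRF8 and IRF9, chosen by name and followed over all 6 arrays of a study of miRNA mimics in THP-1 cells. Of the 17687 genes that the array annotation names, 8 were members. STAT2 has no probe set under its symbol or its gene identifier in that annotation, so it has no level here. Each of the other 8 members has 1 probe set. Levels are log2 signals, so that a difference of 1 is a 2-fold difference. A level was called above background when it exceeded 5.39, the 95th percentile of 349 probe sets of the olfactory receptor family, which is little expressed in most tissues. IRF3 was below this value on all 6 arrays, and the other 7 members were above it on all 6.

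STAT proteins wait in the cytoplasm until a JAK kinase at an occupied cytokine or interferon receptor phosphorylates them, and then pair and enter the nucleus. STAT2 joins IRF9 in ISGF3, the complex that switches on the antiviral genes of type I interferon. The IRF proteins share a DNA-binding domain that reads tandem GAAA repeats, and in macrophages they connect the sensors of foreign nucleic acid and the interferon receptors to interferon, chemokine and antigen presentation genes.

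THP-1 is an established human monocytic leukaemia line. All 6 cultures were given 100 ng/ml of the phorbol ester PMA for 2 days, which turns the cells macrophage-like, and were then transfected with lipofectamine RNAiMAX for 24 h. A culture received either a negative control (mimic NC) or the mimic of 1 miRNA (miR-146a-5p, let-7e-5p, miR-151a-3p, let-7d-3p or miR-130a-3p), a mimic being a synthetic RNA that stands in for the natural miRNA. Each group was 1 culture on 1 Human Clariom S array, so the levels have no replicate error, and differences between arrays are given as descriptions with no test. All 5 comparisons with mimic NC share that 1 control array.

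The labels leave some points unsettled. The treatment text names a let-7a-5p mimic for every sample, the cell line tag reads lymphocyte-like cells, and the meaning of the "2" in the title of the control is not stated. The groups were taken from the titles. The monocytic identity of the cells was checked with 15 monocyte and macrophage markers, of which 14 were above background on all arrays, while CD3D, CD2, CD8A and KLRD1 of T and NK cells, MS4A1 of B cells and 6 of 9 measured genes of epithelial cells and fibroblasts were at or below background on all arrays. Another 4 of the 9 T and NK cell markers and 3 of the 4 measured B cell markers were above background on all arrays. The arrays were alike in scale, with medians between 6.92 and 6.95 and between 13585 and 13869 of 21448 probe sets above background.

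The mimics differ in the seed, bases 2 to 8 from the 5′ end, through which a miRNA pairs with its target mRNAs. The mature sequences of miR-146a-5p, let-7e-5p and let-7d-3p in RefSeq (GRCh38.p14) are shown with the seed in capitals. The miR-146a-5p and let-7e-5p arrays were those with members at least 1.5-fold above the control, and the let-7d-3p array held the lowest level of IRF2, IRF5 and IRF9.
let-7d-3p: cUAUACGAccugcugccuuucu
let-7e-5p: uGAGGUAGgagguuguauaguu
miR-146a-5p: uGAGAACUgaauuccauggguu
No seed is shared among the 3. The other mimics were miR-130a-3p and miR-151a-3p.

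IRF1, which interferon gamma induces and which activates antigen presentation genes, varied most among the members. Its level was 10.08 with mimic NC, 10.92 with miR-146a-5p, 10.85 with let-7e-5p, 10.05 with miR-151a-3p, 9.69 with let-7d-3p and 9.51 with miR-130a-3p. Thus let-7e-5p and miR-146a-5p gave the 2 high arrays, let-7d-3p and miR-130a-3p the 2 low ones, and miR-151a-3p lay beside the control. The RNA came from whole cultures, so expression in more cells and more RNA per cell cannot be told apart. Relative to mimic NC, IRF1 was 1.71-fold higher with let-7e-5p (log2 ratio 0.77) and 1.79-fold higher with miR-146a-5p (0.84). It was 1.48-fold lower with miR-130a-3p (-0.57), just short of 1.5-fold, and 1.31-fold lower with let-7d-3p (-0.39). With each array centred on its median the miR-130a-3p ratio was -0.60 and passed 1.5-fold. Against the median of the other 4 mimics in place of the control, the log2 ratio of IRF1 was -0.76 with let-7d-3p and -0.94 with miR-130a-3p. A ratio as high as that of IRF1 was reached by 1.23% of probe sets with let-7e-5p and by 1.12% with miR-146a-5p. From the lowest to the highest array IRF1 spanned 1.41 (2.66-fold), and 1.84% of the 14692 probe sets above background on at least 1 array spanned as much. The median probe set spanned 0.51.

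**Figure D1:**
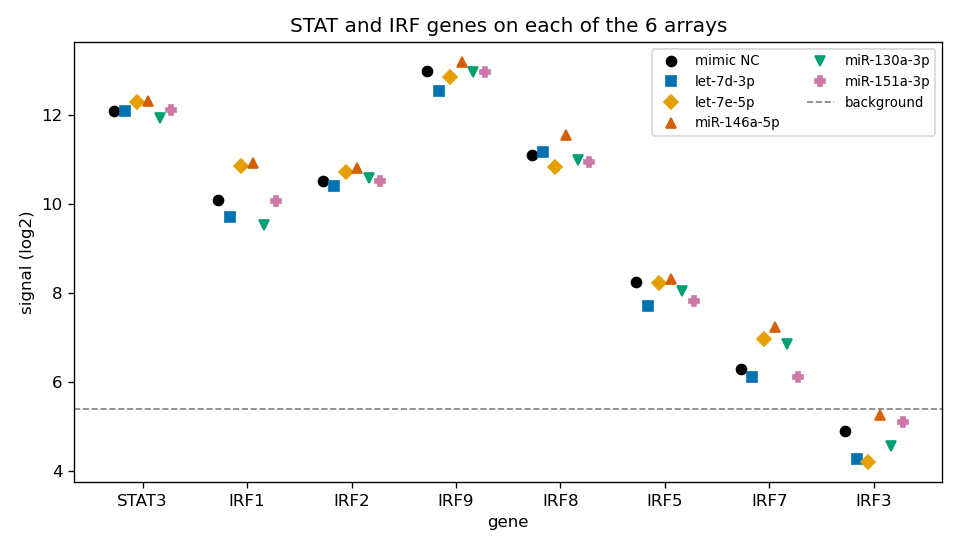
Log2 signal (vertical axis) of the 8 members with a probe set (horizontal axis) on each of the 6 arrays, 1 point per array, with the background of 5.39 as a dashed line. IRF1 and IRF7 spread widest among the 7 genes above background, and all 6 points of IRF3 lie below the line.

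IRF7, which amplifies interferon alpha production and is itself an interferon-induced gene, had a level of 6.30 with mimic NC, 7.23 with miR-146a-5p, 6.96 with let-7e-5p, 6.10 with miR-151a-3p, 6.10 with let-7d-3p and 6.84 with miR-130a-3p. Here 3 mimics lay above the control, and let-7d-3p and miR-151a-3p tied for the lowest place. The ratio to mimic NC was 0.93 with miR-146a-5p (1.91-fold higher), 0.66 with let-7e-5p (1.58-fold) and 0.54 with miR-130a-3p (1.45-fold). With miR-130a-3p, IRF7 was therefore above the control while IRF1 was below it. Against the median of the other 4 mimics the ratio of IRF7 was -0.80 with both let-7d-3p and miR-151a-3p. IRF7 lay in the dim range of the array, where ratios scatter more. With background taken at the 99th percentile of the olfactory receptor probe sets (6.82), its levels with mimic NC, let-7d-3p and miR-151a-3p would lie below it. Its folds over the control would then be lower limits counted from that background. Neither 7.23 with miR-146a-5p nor 6.96 with let-7e-5p lies 1.5-fold above 6.82, so neither lower limit would reach 1.5-fold. The same holds for its folds over let-7d-3p and miR-151a-3p. Among probe sets between background and a level of 7, 10.4% passed 1.5-fold in either direction with let-7e-5p, as did 11.8% with miR-146a-5p. Among probe sets above a level of 10, where IRF1 lay, the shares were 1.66% and 1.70%. With a pseudocount of 32 the let-7e-5p ratio of IRF7 was 0.50, under 1.5-fold. The range of IRF7 over the arrays was 1.13 (2.19-fold), reached by 6.02% of probe sets.

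IRF9, the DNA-binding subunit of ISGF3, had a level of 12.97 with mimic NC, 13.17 with miR-146a-5p, 12.85 with let-7e-5p, 12.96 with miR-151a-3p, 12.53 with let-7d-3p and 12.95 with miR-130a-3p. The let-7d-3p array was low (log2 ratio -0.44, 1.36-fold lower than mimic NC), and the miR-146a-5p array was somewhat high (0.20, 1.15-fold higher). With let-7e-5p, where IRF1 and IRF7 were high, the ratio of IRF9 was -0.12.

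IRF5, which works downstream of MYD88 in the induction of inflammatory cytokines, had a level of 8.25 with mimic NC, 8.31 with miR-146a-5p, 8.23 with let-7e-5p, 7.81 with miR-151a-3p, 7.71 with let-7d-3p and 8.05 with miR-130a-3p. The arrays of let-7d-3p (-0.54, 1.45-fold lower than mimic NC) and miR-151a-3p (-0.44, 1.36-fold lower) were low, and 4.93% and 8.20% of probe sets were at least as low in those comparisons. No mimic array lay clearly above the control. Against the median of the other 4 mimics, IRF5 was 0.30 higher with let-7e-5p and 0.38 higher with miR-146a-5p.

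IRF8, a lineage factor of monocytes that binds DNA together with PU.1, had a level of 11.10 with mimic NC, 11.54 with miR-146a-5p, 10.83 with let-7e-5p, 10.93 with miR-151a-3p, 11.17 with let-7d-3p and 10.97 with miR-130a-3p. It was highest with miR-146a-5p (0.44, 1.36-fold higher than mimic NC, with 7.40% of probe sets at least as high) and lowest with let-7e-5p (-0.27, 1.21-fold lower). IRF8 was thus the member above background with the widest gap between let-7e-5p and miR-146a-5p, with a log2 ratio of -0.71 for let-7e-5p over miR-146a-5p (1.64-fold), and 1.26% of probe sets were lower by at least as much in that comparison. Between the same arrays the ratio was -0.07 for IRF1 and -0.02 for STAT3.

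IRF2, which competes with IRF1 for the same sites and often represses them, had a level of 10.51 with mimic NC, 10.80 with miR-146a-5p, 10.70 with let-7e-5p, 10.50 with miR-151a-3p, 10.39 with let-7d-3p and 10.57 with miR-130a-3p. STAT3, which the receptors of interleukin-6 and interleukin-10 activate, had a level of 12.09 with mimic NC, 12.30 with miR-146a-5p, 12.28 with let-7e-5p, 12.10 with miR-151a-3p, 12.09 with let-7d-3p and 11.92 with miR-130a-3p. Both genes moved little. The range was 0.41 for IRF2 and 0.38 for STAT3, and 65.2% and 70.0% of probe sets had at least such a range. The small differences followed the order seen in IRF1 at the upper end, with miR-146a-5p first and let-7e-5p second. For STAT3 those 2 arrays lay at 12.30 and 12.28, and repeated quantile normalization put let-7e-5p first.

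IRF3, the factor that TBK1 phosphorylates to start interferon beta transcription, had signals from 4.20 with let-7e-5p to 5.25 with miR-146a-5p. All lay below background, so no fold is given and no direction is read from them. A level below background here says only that this probe set did not stand out from the olfactory receptor probe sets.

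**Figure D2:**
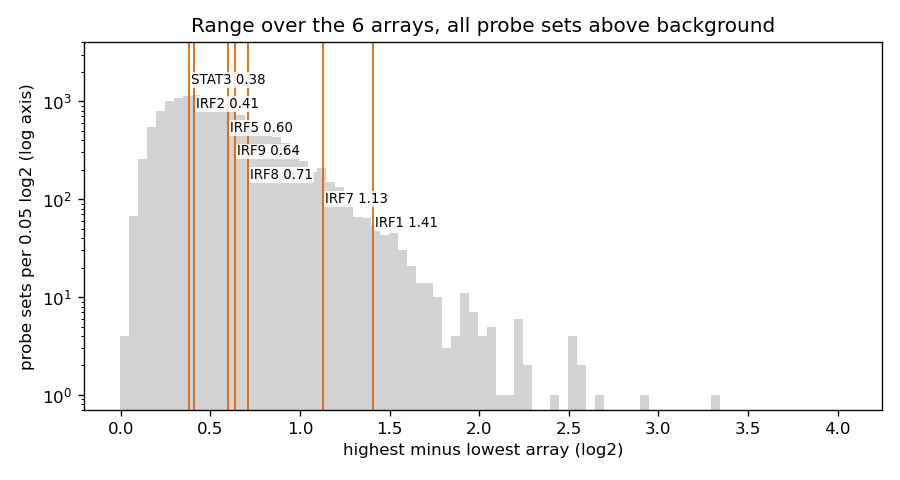
Number of probe sets (vertical axis, log scale) by the difference between their highest and lowest array (horizontal axis, log2), for the 14692 probe sets above background. Vertical lines mark the 7 members above background, with STAT3 (0.38) and IRF2 (0.41) below the median of 0.51 and IRF7 (1.13) and IRF1 (1.41) in the upper tail.

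Counted over the 7 members above background, the 5 mimics gave different pictures relative to mimic NC. With miR-146a-5p 7 members were higher and 0 lower, where 50.1% of all probe sets were higher by any amount, and the median ratio was 0.29 against 0.01 over all probe sets. The smallest of the 7 ratios, that of IRF5 (0.06), was -0.02 when the arrays were centred on housekeeping genes. At 1.5-fold, IRF1 and IRF7 were higher and 0 members lower, beside 3.66% of probe sets higher and 2.77% lower. With let-7e-5p 4 members were higher and 3 lower, where 48.4% of probe sets were higher, with a median of 0.19 against 0. IRF1 and IRF7 were again the members at least 1.5-fold higher and 0 were lower, beside 3.24% and 2.5% of probe sets. Both counts rest on the same control array.

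The other 3 mimics put 0 members past 1.5-fold in either direction. With let-7d-3p 5 members were lower, IRF8 was higher by 0.07 and STAT3 was equal, beside 46.5% of probe sets higher, 3.74% at least 1.5-fold higher and 3.82% at least 1.5-fold lower. The median ratio of the members was -0.20 against -0.02. With miR-130a-3p 2 members were higher and 5 lower (50.1%, 3.89% and 3.31% of probe sets in the same order), with a median of -0.13 against 0.01. With miR-151a-3p 1 member was higher and 6 lower (52.9%, 4.49% and 4.49%), with a median of -0.03 against 0.02. IRF5 was the only member that differed by more than 0.2 from the control with miR-151a-3p.

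**Figure D3:**
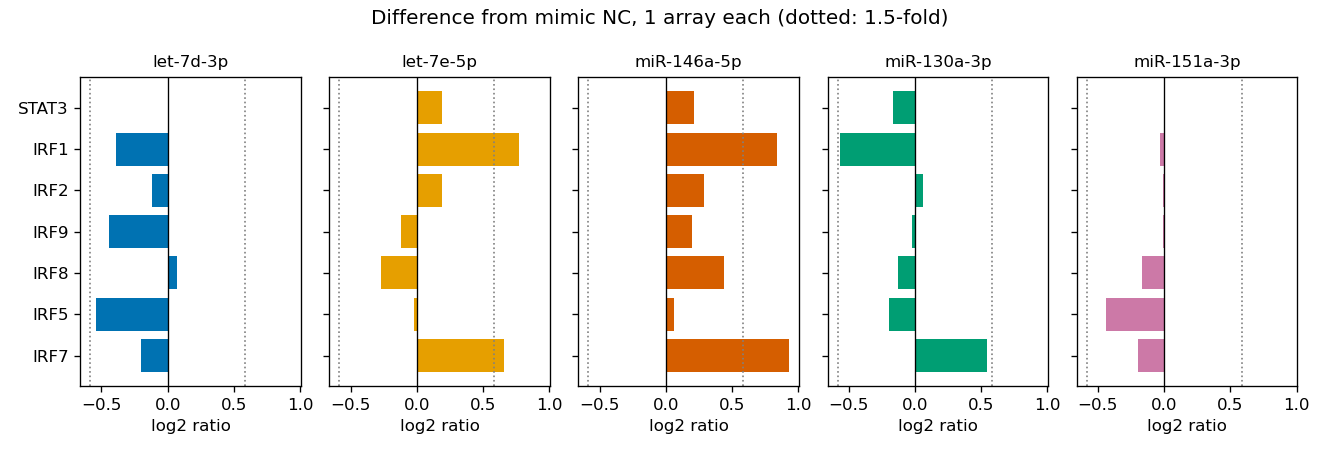
Log2 ratio to mimic NC (horizontal axis) of the 7 members above background (vertical axis), 1 panel per mimic and 1 array per bar, with dotted lines at 1.5-fold. Only IRF1 and IRF7 cross a dotted line, in the let-7e-5p and miR-146a-5p panels, and all 7 bars point up with miR-146a-5p, though the IRF5 bar (0.06) turned to -0.02 when arrays were centred on housekeeping genes.

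Over the 6 arrays, all 7 members above background had their highest level with miR-146a-5p, the array that gave the highest level of 15.2% of probe sets. This depends on the scaling. With each array centred on the median of 14 housekeeping genes only IRF7, IRF8 and IRF9 (3 members) were highest there, while STAT3, IRF1, IRF2 and IRF5 were highest with let-7e-5p. With repeated quantile normalization 6 were. The lowest level fell on let-7d-3p for IRF2, IRF5 and IRF9, an array that gave the lowest level of 21.6% of probe sets, on miR-130a-3p for STAT3 and IRF1, and on let-7e-5p for IRF8.

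Set directly against each other, without the control array, miR-146a-5p and let-7d-3p differed most of the 3 pairs of mimics counted. IRF1 (2.35-fold), IRF7 (2.19-fold), IRF9 (1.56-fold) and IRF5 (1.52-fold) were at least 1.5-fold higher with miR-146a-5p, 4 of 7 members beside 6.36% of probe sets, and 0 were lower by as much (5.15%). This count depends on the scaling. With housekeeping centring IRF5 (-0.015 and -0.505 relative to mimic NC) and IRF9 (0.125 and -0.405) lay less than 1.5-fold apart on these arrays. With repeated quantile normalization IRF5 did so too (0.0067 and -0.5183). The median difference of the members was 0.60 against 0.02 over all probe sets. Between let-7e-5p and let-7d-3p, IRF1 (2.23-fold) and IRF7 (1.82-fold) were higher with let-7e-5p and 0 members lower, beside 5.28% and 4.33% of probe sets, with a median difference of 0.32. Between miR-130a-3p and miR-151a-3p, IRF7 was 1.67-fold higher with miR-130a-3p and 0 members lower (5.19% and 4.41%), with a median difference of 0.04. IRF1 went the other way in that pair, by -0.54.

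The members' promoters were searched for the DNA letters that these families read, since STAT proteins are known to activate IRF1 itself. RefSeq (GRCh38.p14) windows of 300 bases, 250 before to 50 after a gene start, matched 6 members, IRF1, IRF5, IRF8, IRF9, STAT2 and STAT3, with 10 windows. The STAT palindrome, TTC and GAA with any 3 bases between, which reads the same on both strands, was found in windows of IRF1 and IRF9 and in 7.66% of all 35116 windows. It starts at -124 from the start of IRF1 and at -63 from that of IRF9. Both sites are shown in capitals with the bases around them, 5′ to 3′ along the gene, for IRF1 chr5:132490874-132490912 on the minus strand and for IRF9 chr14:24161187-24161225 on the plus strand.
IRF1: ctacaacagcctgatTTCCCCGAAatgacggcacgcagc
IRF9: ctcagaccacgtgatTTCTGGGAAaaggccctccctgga
The tandem IRF motif, a pair of GAAA in the same direction with any 2 bases between, was searched on both strands. It was found in 0 of the 6 members with a window and in 3.57% of all windows. In only 10 windows a count of 0 is close to that share. IRF2, IRF3 and IRF7 had no window and were not searched. The 2 genes with a palindrome differed with let-7e-5p. IRF1 was 0.77 above mimic NC with let-7e-5p where the ratio of IRF9 was -0.12. A match describes letters only.

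The genes that these factors are known to switch on were described from lists chosen by name. ISGF3 targets, the antiviral genes of type I interferon such as IFIT2, MX1 and OASL, had 20 genes, all measured above background. With let-7d-3p 20 of 20 were lower than mimic NC and the median ratio was -0.64, beside an IRF9 ratio of -0.44. With miR-146a-5p 20 were higher (median 0.49) and IRF9 was 0.20 higher. With let-7e-5p 19 were higher (0.33), where the ratio of IRF9 was -0.12. With miR-130a-3p 19 were lower and 0 higher (-0.28), and with miR-151a-3p 19 were lower (-0.40), while the ratio of IRF9 was -0.02 and -0.01. The list and its IRF subunit therefore had the same sign with let-7d-3p and miR-146a-5p and opposite signs with let-7e-5p. For the other mimics the list shifted with next to none in IRF9. The IRF9 ratios were small beside all probe sets. With let-7d-3p 7.94% were at least as low, with let-7e-5p 31.96% were at least as low, and with miR-146a-5p 22.69% were at least as high. The direction of IRF9 with let-7e-5p and miR-146a-5p is thus uncertain. At 1.5-fold, 11 of the 20 were lower with let-7d-3p, 2 with miR-151a-3p and 1 with miR-130a-3p, while 7 were higher with miR-146a-5p and 3 with let-7e-5p. The shares of all probe sets in the same order were 3.82%, 4.49%, 3.31%, 3.66% and 3.24%, so that the 1 gene with miR-130a-3p is close to the background. The median of the list kept its sign with each mimic under the rescalings and the pseudocount.

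IRF1 targets, interferon gamma-induced genes of antigen presentation, guanylate-binding proteins and chemokines, had 16 of 17 genes above background. CIITA, the activator of MHC class II genes, was so only with let-7d-3p (5.50), and is left out of the counts of the other mimics, where it and the control (4.78) were both below background. Over the remaining 15 genes the median ratio was 0.27 with let-7e-5p (14 higher, 1 lower) and 0.62 with miR-146a-5p (15 higher), the mimics with high IRF1, -0.38 with miR-130a-3p (15 lower), and -0.21 with miR-151a-3p (11 lower, 3 higher), where the ratio of IRF1 was -0.03. With let-7d-3p, where IRF1 was low, it was -0.56 over 16 genes (15 lower). GBP4, a guanylate-binding protein, had a level of 10.84 with mimic NC, 11.93 with miR-146a-5p, 11.45 with let-7e-5p, 10.43 with miR-151a-3p, 9.70 with let-7d-3p and 9.93 with miR-130a-3p. Its 2 high and 2 low arrays were those of IRF1. NLRC5, the activator of MHC class I genes, was different, at 8.32 with mimic NC, 6.99 with let-7d-3p and 8.22 with let-7e-5p. For likeness across the 6 arrays the median was taken over all 17 genes of the list, those below background included. Pearson's r between IRF1 and this median was 0.94 (Spearman's rho 0.94). Most other members resembled the same median too, with r of 0.92 for IRF2, 0.84 for IRF5, 0.82 for STAT3, 0.74 for IRF7 and 0.72 for IRF9, beside 0.41 for IRF8. These coefficients describe 6 points that share the cells, the normalization and 1 culture each.

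**Figure D4:**
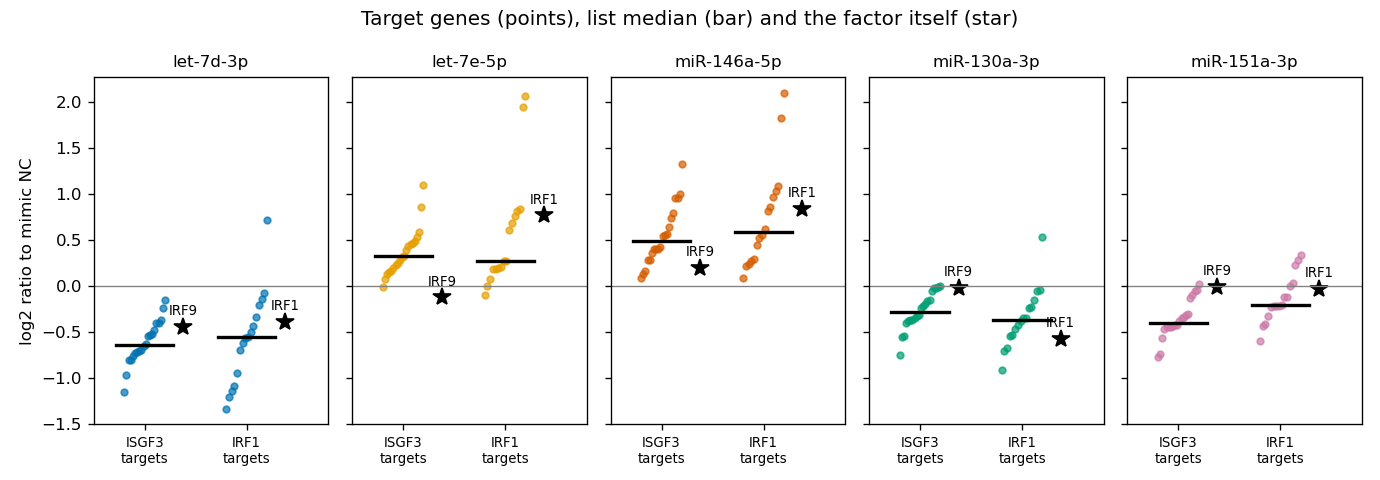
Log2 ratio to mimic NC (vertical axis) of 20 ISGF3 targets and 16 IRF1 targets above background on at least 1 array (points, including CIITA, which was above it with let-7d-3p alone), with the median of each list (bar) and the ratio of IRF9 or IRF1 (star), 1 panel per mimic. IRF1 lies on the same side of 0 as the median of its list with all 5 mimics. IRF9 does so except with let-7e-5p, where it lies below 0 while the median of its list is 0.33. Some stars lie so near 0 that their side says little: IRF1 with miR-151a-3p (-0.03), and IRF9 both with that mimic (-0.01) and with miR-130a-3p (-0.02).

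STAT3 targets such as MCL1, BCL6 and MYC had 11 of 13 measured genes above background. With each mimic 0 of them passed 1.5-fold, close to the 2.5% to 4.49% of all probe sets that passed it in a given direction. Their medians lay between -0.10 and 0.05. With housekeeping centring the medians with miR-146a-5p and miR-130a-3p turned below 0 (-0.03 and -0.04). MCL1, an inhibitor of apoptosis, was highest with miR-146a-5p (15.65, against 15.23 with mimic NC) and BCL6, a repressor, was lowest with miR-130a-3p (14.85, against 15.05). SOCS3, the feedback inhibitor that STAT3 induces, was below background on all 6 arrays, between 4.06 and 4.45. Among the partners of IRF8, PU.1 itself (SPI1) varied only from 13.12 to 13.27. KLF4, a factor of monocyte differentiation, was lower than mimic NC with all 5 mimics, with ratios from -0.47 with let-7e-5p to -0.71 with miR-130a-3p, and its level of 8.69 with mimic NC stood above the other arrays.

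Upstream of the members, the ligands gave little signal. Of 20 interferon genes with a probe set, 5 were above background on at least 1 array, IFNA8, IFNA13, IFNA14, IFNL3 and IFNW1, and IFNL3 alone was above it on all 6, between 5.65 and 6.24. IFNB1 lay between 3.45 and 4.40 and IFNG between 3.56 and 4.37, below background throughout. Interferon alpha genes are near-identical copies, so their probe sets are uncertain. Of 13 receptors and JAK kinases 12 were above background. JAK2, a kinase of the interferon gamma receptor, had its highest level with miR-146a-5p (11.74) and its lowest with miR-130a-3p (10.74), the arrays at which IRF1 was highest and lowest, beside 11.03 with mimic NC. IL6R, the interleukin-6 receptor through which STAT3 is activated, had a level of 11.87 with let-7d-3p and 12.65 with mimic NC (1.72-fold), where STAT3 was equal to the control.

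Of 21 measured sensors, adaptors and kinases upstream of IRF proteins 20 were above background. Of these 15 were higher with miR-146a-5p, 13 with let-7e-5p, 7 with miR-151a-3p, 5 with miR-130a-3p and 4 with let-7d-3p, and the others were lower, where 50.1%, 48.4%, 52.9%, 50.1% and 46.5% of all probe sets were higher. TLR3, a sensor of double-stranded RNA, had a level of 8.32 with mimic NC, 9.02 with miR-146a-5p, 8.48 with let-7e-5p, 7.80 with miR-151a-3p, 7.08 with let-7d-3p and 7.66 with miR-130a-3p. CGAS, the cytosolic DNA sensor, was highest with let-7e-5p (10.97, against 10.34 with mimic NC). TRAF6, an adaptor downstream of MYD88 and a known target of miR-146a, was the lowest of the list with miR-146a-5p (10.58, against 11.05), and the other 4 mimics left it between 10.85 and 11.08. TBK1, the kinase of IRF3 and IRF7, stayed between 12.11 and 12.44.

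Among inhibitors, USP18, which blocks signalling at the type I interferon receptor and is itself induced by interferon, had a level of 13.55 with mimic NC, 13.94 with miR-146a-5p, 13.88 with let-7e-5p, 13.07 with miR-151a-3p, 12.75 with let-7d-3p and 13.16 with miR-130a-3p. Its 2 high arrays were those of IRF1, and its low arrays included miR-151a-3p. PTPN1, a phosphatase of JAK kinases, was above mimic NC with all 5 mimics, by 0.30 to 0.68, so that the control array was the low one. In the list of inhibitors and turnover factors of IRF proteins 0 of 6 genes passed 1.5-fold with any mimic. Among all probe sets 2.5% to 4.49% passed it in a given direction, so a count of 0 in so short a list is close to the background.

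Of the remaining STAT and IRF genes 8 were above background on at least 1 array. IRF2BP1 was so only with miR-146a-5p. It is left out for the other mimics, where it and the control (4.70) were both below background. The median ratio was -0.16 with miR-146a-5p (6 of 8 lower). Over the 7 genes left with the other mimics it was -0.25 with let-7d-3p (5 lower), 0 with let-7e-5p, -0.13 with miR-151a-3p and 0 with miR-130a-3p. IRF1 was likewise low with let-7d-3p but high with miR-146a-5p. STAT6, the factor of interleukin-4 signalling, lay between 11.75 and 12.00, and STAT5A and STAT5B differed by less than 1.5-fold from the control with each mimic. STAT4 and IRF4 lay near background, each under it with miR-151a-3p, and STAT4 also with let-7d-3p (5.29). Of the binding partners of IRF2, IRF2BP2 was above mimic NC with all 5 mimics, from 0.13 with let-7d-3p to 0.61 with miR-151a-3p, IRF2BPL was lowest with let-7d-3p (7.63, against 8.13), and IRF2BP1, one of the 8, exceeded background on the miR-146a-5p array alone (5.41).

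The genes whose 6 levels were most like those of each member were sought among 4925 genes above background on all arrays with a range of at least 0.5. For IRF1 these were RXFP1 (r = 0.99), BRAT1 (0.99) and UVRAG (0.99), and 47 genes reached 0.95. For IRF7 they were GNB4 (0.98), MASTL (0.98) and DOCK4 (0.97), with 9 genes at 0.95 or more, and for IRF8 CASP4 (0.98), ANKRD16 (0.96) and ANKRD49 (0.95), with 5. IRF2 was most like TENT5A, SCLT1 and EIF2AK2, the last an ISGF3 target, STAT3 like ADCK2, RNF19B and DGKQ, IRF5 like MANF, NQO2 and N4BP1, and IRF9 like MID2, BTK and SLC25A52, all at 0.98 or more. Among the members, IRF1 was most like STAT3 (r = 0.96) and IRF7 most like IRF2 (0.93), while IRF8 stayed at 0.36 or less with every other member above background. These coefficients come from 6 arrays and describe likeness over them and no more.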

How the data were processed

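The authors deposited log2 signals per probe set for 6 Clariom S arrays, with 2 decimals, made per the submitters' processing notes by RMA in Transcriptome Analysis Console 4.0. RMA corrects background, equalises arrays and summarises probes, which can shrink real differences. Its settings, and which arrays it equalised jointly, are not given in the sources used. The labels name Trizol and the paper RNeasy for the extraction. Of 21448 probe sets 17709 carried 1 gene symbol, and all 17709 gene identifiers matched RefSeq. Ratios are differences of deposited log2 values, computed with Python 3.11.15, numpy 2.4.6 and pandas 2.3.3. Genes with several probe sets (20) were averaged. The number of arrays limits the precision, and a fold of 1.5 stood in for a test.

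The members, lists and rules were chosen with earlier results of these data known. Named genes were the members, the 3 genes most like each, the highest and lowest of each list per mimic, and the remaining STAT, IRF and interferon genes. GBP4, SPI1, SOCS3, TBK1, IFNB1 and a few others outside this rule were picked for their roles after their values were seen. Medians cover the 7 members above background, not all 9. Alternatives were another comparator, 3 rescalings, removal of a lowess trend (span 0.3), a pseudocount of 32, and other folds and filters. The computation of ratios was tested on simulated data.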

Additional observations from a re-analysis of the deposited data

How the results depend on the processing

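The values cover 1 array per group, so the spread between cultures is unknown and no difference was tested; dim probe sets such as that of IRF7 scatter more than bright ones. No paired analysis was possible because there was only 1 culture in a group, and no replicate could be left out. Under the rescalings, the removal of a trend and the pseudocount, the 35 single ratios (175 values) moved by at most 0.21 on the log2 scale; 4 ratios of at most 0.06 in size changed sign and 1 of exactly 0 took one, 1 ratio left the 1.5-fold range (IRF7 with let-7e-5p, 0.50 with the pseudocount) and 1 entered it (IRF1 with miR-130a-3p, -0.60 with median and -0.65 with housekeeping centring). The median ratio of the members kept its sign for each mimic under all alternatives run. Counts of members past 1.5-fold were more sensitive. With the median of the other 4 mimics as comparator, 2 members were lower with let-7d-3p, 1 with miR-151a-3p and 1 with miR-130a-3p, while 3 were higher with miR-146a-5p and 1 with let-7e-5p. With the pseudocount 1 was higher with let-7e-5p. With median and with housekeeping centring 1 was lower with miR-130a-3p. At the smaller fold tried in place of 1.5, 3 were lower with let-7d-3p, 1 with miR-151a-3p and 1 with miR-130a-3p, while 1 was higher with miR-130a-3p and 3 with miR-146a-5p. No share of all probe sets is given for a fold other than 1.5 or for the median of the other 4 mimics. The counts under those settings therefore cannot be set against a background. IRF1 with let-7d-3p was among those lower at the smaller fold, and 10.14% of probe sets were at least as low. At 2-fold 0 were higher with miR-146a-5p and 0 with let-7e-5p. Without the background filter 1 was lower with let-7d-3p and 1 with let-7e-5p, in both cases IRF3, which is below background. The number of members above mimic NC by any amount was 2 with let-7d-3p under quantile normalization, housekeeping centring and removal of the trend, 1 with miR-130a-3p under housekeeping centring, and 0 with miR-151a-3p under these 3 settings and median centring. Searched on the given strand alone, the tandem IRF motif was in 1.692% of promoter windows. The number of members highest with miR-146a-5p was 3 with housekeeping centring, an alternative chosen after seeing the data. The cause of these moves was not tested.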
